A study of Homo sapiens with 27 samples.

Results

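The mitosis and G2/M genes are 46 genes whose products act from the end of G2 to the separation of the daughter cells. They were chosen by gene symbol from a named list, drawn up with earlier results of these data known. All 46 were found among the 10470 genes of the expression table. The cells were DLD1, an established human colorectal carcinoma line, and the question was how transcription changes when the VPS37 paralogs are depleted singly, in pairs or together. VPS37A, VPS37B and VPS37C are alternative subunits of ESCRT-I, a complex that sorts ubiquitinated membrane proteins into the lysosomal pathway. The 9 groups were non-transfected cells (NT), cells given a mixture of non-targeting siRNAs (siCTRL), and cells given siRNA against VPS37A, VPS37B or VPS37C alone (siVPS37A, siVPS37B, siVPS37C), against 2 paralogs (siVPS37AB, siVPS37AC, siVPS37BC) or against all 3 (siVPS37ABC). All groups were the same unmodified line collected 72 h after the transfection step, with 3 biological replicates each, 27 libraries in all. One siRNA sequence was used per paralog, so each knockdown rests on a single duplex, and the model is a single cell line.

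Genes of this kind are transcribed late in the cell cycle. In G0 and G1 the DREAM complex represses them through the cell cycle genes homology region (CHR), a short promoter element. In G2, B-MYB and FOXM1 activate them on the same MuvB core, often beside CCAAT boxes bound by NF-Y. Their products drive mitotic entry (cyclins, CDK1, CDC25 phosphatases, PLK1), build the spindle and kinetochores, hold anaphase until chromosomes are attached, and divide the cytoplasm. In a bulk sample, fewer cells in G2 and mitosis and less RNA per such cell cannot be told apart.

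The promoter windows of 6 members are shown because their values run through the results: 4 fell in siVPS37ABC cells (CDCA8, CENPA, KIF20A, TOP2A) and 2 did not pass the test there (CCNB2, PLK1). Each line gives the 100 bases before the annotated start, 5′ to 3′ on the gene's strand, from RefSeq on GRCh38.p14. Capitals mark the CHR letters TTTGAA or TTCGAA and the CCAAT box, read on either strand, so that ATTGG is a CCAAT box on the other strand.
CDCA8: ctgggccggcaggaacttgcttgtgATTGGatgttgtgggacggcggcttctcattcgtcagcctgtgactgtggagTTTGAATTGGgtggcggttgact
CENPA: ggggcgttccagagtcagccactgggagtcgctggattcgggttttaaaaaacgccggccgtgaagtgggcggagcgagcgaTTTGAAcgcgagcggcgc
KIF20A: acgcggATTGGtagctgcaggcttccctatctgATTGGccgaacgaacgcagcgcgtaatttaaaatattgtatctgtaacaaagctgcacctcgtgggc
TOP2A: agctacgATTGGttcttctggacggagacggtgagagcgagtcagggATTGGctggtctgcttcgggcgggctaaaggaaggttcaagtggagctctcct
CCNB2: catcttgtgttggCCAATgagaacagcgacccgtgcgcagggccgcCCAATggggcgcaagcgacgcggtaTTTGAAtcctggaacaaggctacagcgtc
PLK1: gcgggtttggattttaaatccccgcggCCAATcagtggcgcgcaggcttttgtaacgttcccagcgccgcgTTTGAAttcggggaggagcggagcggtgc

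The windows lie at chr1:37692416-37692515 (CDCA8, plus strand), chr2:26785956-26786055 (CENPA, plus strand), chr5:138179012-138179111 (KIF20A, plus strand), chr17:40417897-40417996 (TOP2A, minus strand), chr15:59105046-59105145 (CCNB2, plus strand) and chr16:23678789-23678888 (PLK1, plus strand). In CDCA8 the CHR letters overlap a CCAAT box of the other strand. KIF20A has no CHR letters in its window, and those of TOP2A lie farther upstream than the bases shown.

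Windows of 250 bases before to 50 after the start, from RefSeq, were used for 36 of the 46 members. TTTGAA or TTCGAA stood in the window of 28 of these 36 members (77.8%), against 19.5% of the 27305 genes with a window. CCAAT stood in 30 of the 36 (83.3%), against 39.7% of genes, and both elements stood together in 24 (66.7%), against 7.85%. Among the members that fell in siVPS37ABC cells, 6 had a window and 4 of these held a CHR, while 24 of the other 30 members did. A match to these letters is a description of the window and was not tested as a binding site. The members whose windows were not analysed here were TPX2, BIRC5, AURKA, BUB3, TTK, CENPM, UBE2C, PBK, FOXM1 and RACGAP1.

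Expression was read with an amplicon panel. The table is named by its authors for normalized counts, but its values are fractional and every library sums to 1000000. They were therefore treated as TPM, a transcript's share of its library, an inference from the values, and the read depth is unknown. Each siRNA lowered its own target: VPS37B stood at 3.35% to 7.42% of its siCTRL mean in the 4 groups that received siVPS37B, VPS37A at 5.54% to 9.11%, and VPS37C at 21.6% to 28.7%. VPS37A had a mean under 10 TPM over all libraries, so its percentages rest on low values. All 8 epithelial markers were in the table and summed to 8242 to 13359 TPM per library, whereas 4 of 18 fibroblast, leukocyte and endothelial markers were in it and none exceeded a mean of 6.53 TPM. The lowest mean of an epithelial marker was 1.99 TPM, so not every one of them was high. Of the 46 members, 42 had a mean of at least 10 TPM and were tested among 6458 genes. CENPE, HMMR, KIF4A and NDC80 were below that mean in the table as a whole and were fitted without the filter. Changes are log2 differences of TPM + 1 with their standard error (SE) from limma, and a gene is called at a Benjamini-Hochberg adjusted p under 0.05 over all 6458 genes.

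Depletion of all 3 paralogs lowered 10 of the 42 tested mitosis genes and raised 1, CDC25B. The 10 were TPX2, BIRC5, TOP2A, KIF20A, CENPA, RACGAP1, PBK, CDCA8, NUF2 and KIF2C, at 56.1% to 73.2% of their siCTRL means. Over all tested genes 8.32% fell and 13.6% rose in the same comparison. Because the list was drawn up with earlier results known, the counts beside these shares are a description and not a test. The median log2 difference of the 42 members was -0.34, against 0.03 for all tested genes, and 35 of the 42 lay below 0. No tested member moved by 2-fold or more in any comparison. With the replicate number as a block, 18 members fell and 1 rose, with 33.1% of all genes called in either direction. Quantile normalization gave 14 lower and 1 higher, and moved the split of all calls from 880 higher and 537 lower to 777 higher and 720 lower.

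**Figure D1:**
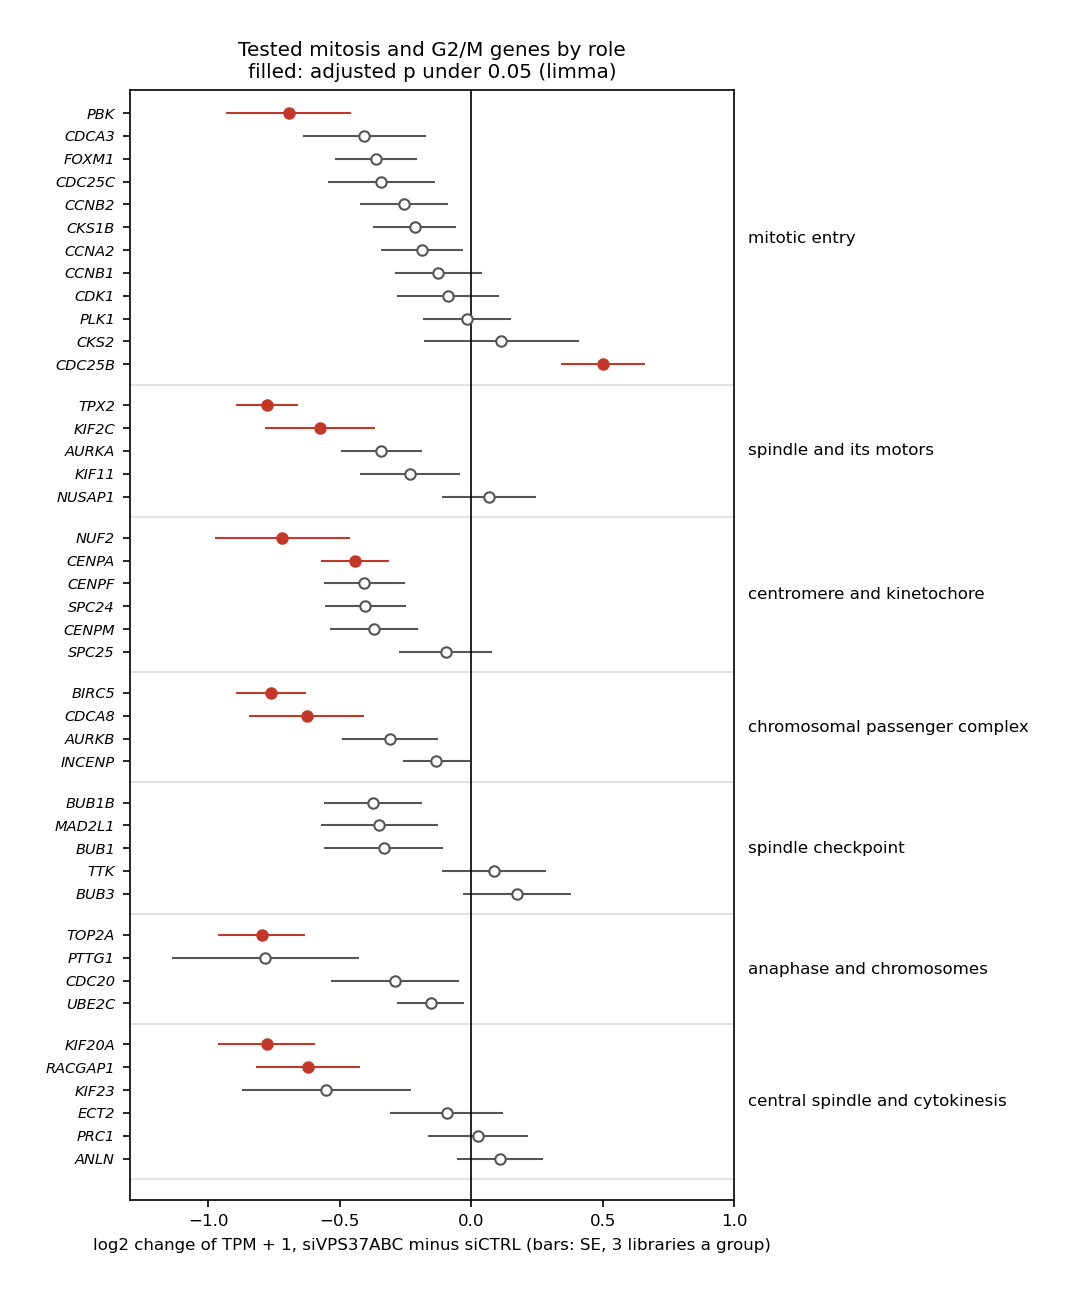
Log2 change of TPM + 1 in siVPS37ABC minus siCTRL cells (horizontal axis) for the 42 tested members, grouped by role; points are estimates, bars are SE from limma with 3 libraries a group, and filled points passed an adjusted p of 0.05. Of the filled points, 10 lie to the left of 0, TOP2A farthest at -0.80, and CDC25B alone lies to the right at 0.50.

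Among the regulators of mitotic entry, the engine itself did not pass the test. CDK1, the kinase that drives mitosis, was at 150, 159 and 209 TPM in siCTRL cells and at 137, 150 and 202 TPM in siVPS37ABC cells, a log2 difference of -0.09 ± 0.20 (SE, n = 3 per group, adjusted p = 0.792). The ranges overlapped almost entirely, although each knockdown library was slightly below the siCTRL library of the same replicate number. CCNB1, its cyclin B1 partner, differed by -0.13 ± 0.17 (adjusted p = 0.634), CCNB2 (cyclin B2) by -0.26 ± 0.17 (adjusted p = 0.293) and PLK1, a kinase of entry and spindle assembly, by -0.02 ± 0.17 (adjusted p = 0.954).

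CDC25B, a phosphatase that activates CDK1 at entry, rose. It was at 52.9, 53.8 and 80.1 TPM in siCTRL and at 83.4, 95.2 and 82.5 TPM in siVPS37ABC libraries. The groups did not overlap, although the third siCTRL library came within a few TPM of the lowest knockdown library. The change was 0.50 ± 0.16 (adjusted p = 0.0243), and it lost its call when siCTRL replicate 1 was left out (0.40, adjusted p = 0.121), as it did without siCTRL replicate 2 or siVPS37ABC replicate 2, or in a fit on the compared groups alone. CDC25C, its late-acting relative, differed by -0.34 ± 0.20 (adjusted p = 0.251).

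PBK, a mitotic kinase, fell from 62.0, 82.7 and 103 TPM to 40.4, 45.8 and 65.9 TPM, a change of -0.69 ± 0.24 (adjusted p = 0.0372). Its highest knockdown library lay above its lowest siCTRL library, so the groups overlapped. Against NT, where PBK was at 52.0, 66.0 and 52.9 TPM, the difference was -0.19 and was not called (adjusted p = 0.609), and with the library number as a term it was -0.32 (adjusted p = 0.301). It also lost the call without siCTRL replicate 2 or 3 or siVPS37ABC replicate 1 or 2 (adjusted p = 0.0862, 0.186, 0.156 and 0.112).

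FOXM1, the transcription factor that activates many of these genes in G2, was at 70.0, 50.4 and 64.8 TPM in siCTRL and at 43.6, 46.0 and 52.9 TPM in siVPS37ABC cells. The highest knockdown value exceeded the lowest control value. Its difference of -0.36 ± 0.16 did not pass (adjusted p = 0.0987), and with the replicate block it did (adjusted p = 0.0363). In all, 1 of the 12 entry genes fell and 1 rose, with a median of -0.20. The share that fell was near the 8.32% of all tested genes, and the share that rose was below the 13.6% of all.

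The spindle genes held the member with the smallest p. TPX2, which brings AURKA to the spindle and starts microtubule growth near chromosomes, was at 118, 115 and 123 TPM in siCTRL and at 67.4, 68.3 and 70.7 TPM in siVPS37ABC libraries. All 3 knockdown libraries lay close together and far below all 3 controls. The change was -0.78 ± 0.12 (adjusted p = 2.55e-05), or 58.0% of the siCTRL mean. KIF2C, a kinesin that takes microtubules apart at centromeres, fell by 0.58 on the log2 scale (SE 0.21, adjusted p = 0.0478), from 53.0, 50.5 and 78.7 to 30.6, 40.4 and 50.1 TPM. That call was near the threshold and was lost under 10 of 15 alternatives, among them NT as the reference (adjusted p = 0.165), no filter (adjusted p = 0.0507) and leaving out siCTRL replicate 1 or 3 or siVPS37ABC replicate 1 or 2 (adjusted p = 0.0533, 0.269, 0.238 and 0.0925). AURKA itself, a spindle-pole kinase, differed by -0.34 ± 0.15 (adjusted p = 0.116), and NUSAP1, which bundles spindle microtubules, by 0.07 ± 0.18 (adjusted p = 0.837).

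In the centromere and kinetochore group, CENPA and NUF2 fell among 6 tested members. CENPA, the histone H3 variant that marks the centromere, went from 41.8, 49.0 and 53.7 to 30.6, 41.4 and 33.9 TPM (-0.44 ± 0.13, adjusted p = 0.0143). The highest knockdown library nearly reached the lowest control. NUF2, a subunit of the microtubule-binding NDC80 complex, went from 22.4, 25.8 and 36.9 to 13.2, 15.4 and 21.9 TPM (-0.72 ± 0.26, adjusted p = 0.0448). Both NUF2 series were highest in replicate 3, and with the library number as a term the NUF2 difference was -0.23 (adjusted p = 0.269). CENPA lost its call without siCTRL replicate 3 or siVPS37ABC replicate 1 (adjusted p = 0.0862 and 0.0896), and NUF2 without siCTRL replicate 2 or 3 or siVPS37ABC replicate 1 or 2 (adjusted p = 0.0696, 0.221, 0.176 and 0.122). With the replicate block SPC24, CENPM and CENPF were called lower as well (adjusted p = 0.0117, 0.0237 and 0.0334), 5 of the 6 in all. That fit called 33.1% of all tested genes in either direction. NUF2 was not called against NT (adjusted p = 0.123). SPC25, another subunit of that complex, had the smallest difference, -0.10 ± 0.18. The untested NDC80 and CENPE differed by -0.45 ± 0.26 and -0.55 ± 0.51 in the fit without a filter.

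The chromosomal passenger complex, which corrects faulty attachments and later moves to the midzone, has 4 members and 2 of them fell. BIRC5 (survivin), the subunit that recruits the complex to centromeres, was at 115, 94.4 and 108 TPM in siCTRL and at 56.8, 64.9 and 63.8 TPM in siVPS37ABC libraries (-0.76 ± 0.13, adjusted p = 0.000131). CDCA8 (borealin) was at 25.8, 18.5 and 25.1 TPM and fell to 14.4, 12.7 and 16.6 TPM (-0.63 ± 0.22, adjusted p = 0.0401). For both, every knockdown library lay below every control. BIRC5 kept its call with any 1 library left out, while CDCA8 lost it without siCTRL replicate 1 or 3 or siVPS37ABC replicate 1 or 2 (adjusted p = 0.132, 0.126, 0.0827 and 0.144). The kinase of the complex, AURKB, differed by -0.31 ± 0.18 (adjusted p = 0.243), and its scaffold INCENP by -0.13 ± 0.13 (adjusted p = 0.497).

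None of the 5 spindle checkpoint genes passed. BUB1B, a component of the inhibitor of the anaphase-promoting complex, had the lowest difference at -0.38 ± 0.19 (adjusted p = 0.157), and was called with the replicate block (adjusted p = 0.0388), as was MAD2L1, another component (-0.35, adjusted p = 0.0496). BUB3, which binds phosphorylated kinetochores, had the highest at 0.17 ± 0.21 (adjusted p = 0.593). BUB3 was at 41.6, 51.6 and 60.9 TPM in siCTRL and at 54.2, 61.9 and 56.4 TPM in siVPS37ABC libraries, ranges that overlap.

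Of the anaphase and chromosome genes, TOP2A fell and 3 did not pass. TOP2A, the topoisomerase that untangles sister chromatids, was at 97.5, 90.2 and 103 TPM in siCTRL and at 49.2, 51.2 and 67.0 TPM in siVPS37ABC libraries, with no overlap (-0.80 ± 0.17, adjusted p = 0.000947). PTTG1 (securin, which holds separase in check) had nearly the same estimate with more spread, -0.78 ± 0.36 (adjusted p = 0.121), and was called with the replicate block (adjusted p = 0.0163). UBE2C, the ubiquitin-conjugating enzyme of the anaphase-promoting complex, had the smallest difference at -0.16 ± 0.13.

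Among the 6 central spindle and cytokinesis genes, KIF20A and RACGAP1 fell. KIF20A, a kinesin that carries passengers to the midzone, went from 24.1, 17.9 and 27.6 to 15.6, 11.5 and 11.9 TPM (-0.78 ± 0.18, adjusted p = 0.00306). RACGAP1, a centralspindlin subunit, went from 27.3, 25.3 and 29.9 to 15.03, 18.4 and 19.4 TPM (-0.62 ± 0.20, adjusted p = 0.0245). Neither series overlapped its control. RACGAP1 lost its call without siCTRL replicate 1 or 3 or siVPS37ABC replicate 1 (adjusted p = 0.0562, 0.0882 and 0.107), and against NT (adjusted p = 0.0758). KIF23, the motor partner of RACGAP1, differed by -0.55 ± 0.32 (adjusted p = 0.236) and was called with the replicate block (adjusted p = 0.00971), while PRC1, which crosslinks midzone microtubules, differed by 0.02 ± 0.19. The untested HMMR and KIF4A differed by -0.21 ± 0.33 and 0.07 ± 0.18.

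Counted by overlap, 13 of the 42 members had all 3 siVPS37ABC libraries below all 3 siCTRL libraries, as did 14.4% of all tested genes, and 1 member had them all above. That count ignores the replicate number. Paired by it, 28 members were lower in all 3 pairs and 1 was higher. The share of all genes is not given for the pairs, nor for libraries that all lay above. Those counts therefore do not set the members apart from other genes. CDK1, PBK and FOXM1, whose ranges overlapped, were lower in each pair. Differences between members of one complex were not tested.

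**Figure D2:**
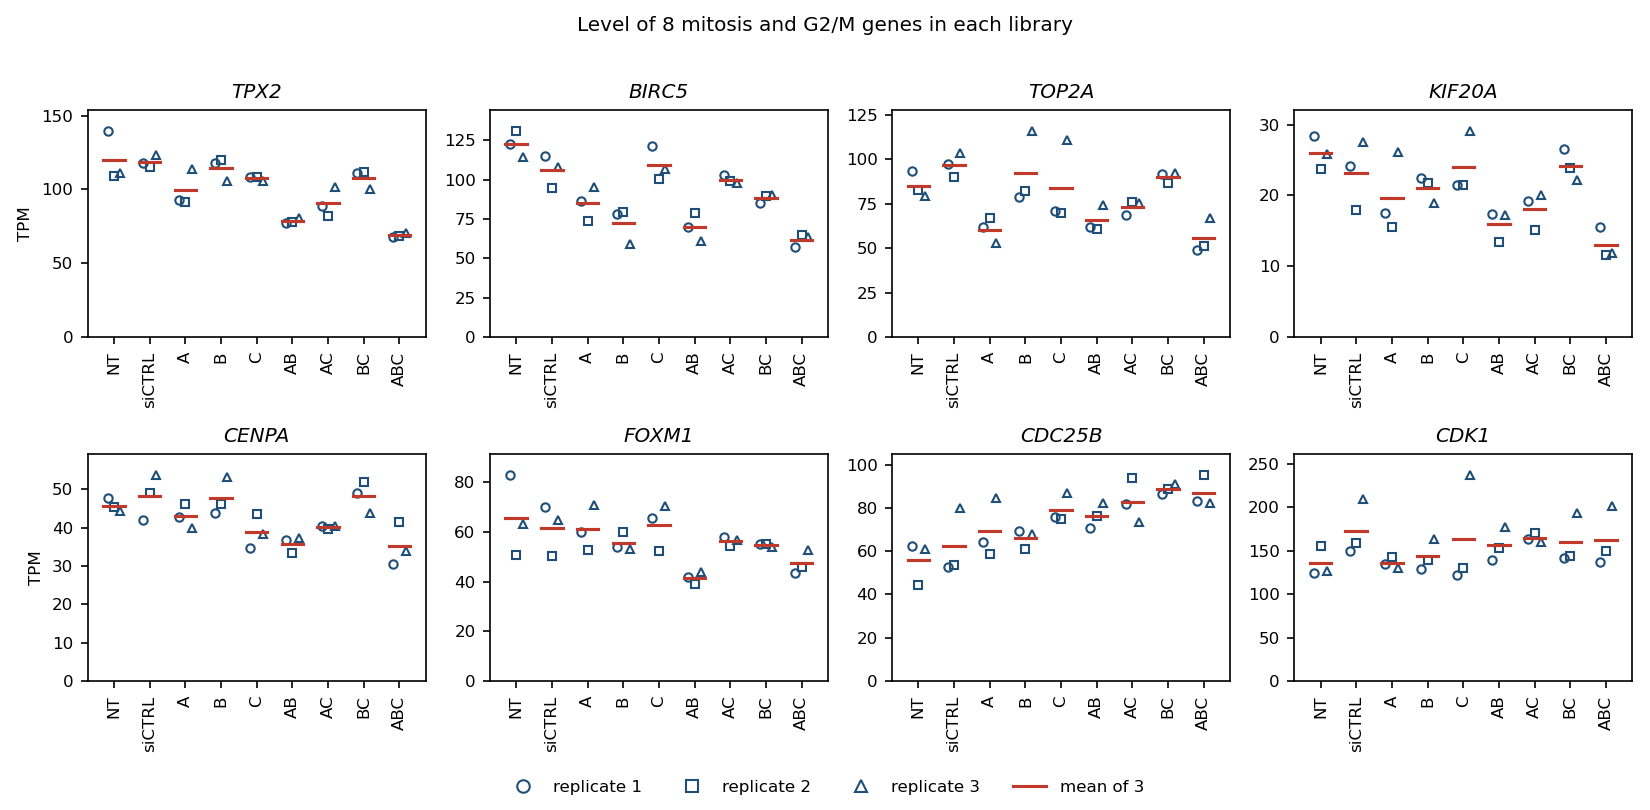
TPM (vertical axes, from 0) of 8 members in each of the 27 libraries by group, named by the paralogs depleted; symbols are the 3 replicates and red lines their means. TPX2 and BIRC5 have their lowest means in the AB and ABC groups, and BIRC5 is nearly as low in the B group as in AB. TOP2A is also low in the A group, CDC25B is at 82.5 TPM or above in all ABC libraries, and CDK1 spans similar levels throughout.

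The double depletion of VPS37A and VPS37B gave the next largest set of calls against siCTRL. In siVPS37AB cells 5 of the 42 members fell and 0 rose, while 3.61% of all tested genes fell and 11.2% rose. TPX2 was at 77.1, 77.8 and 80.6 TPM, all below its siCTRL range (-0.59 ± 0.12, adjusted p = 0.00111). BIRC5 was at 70.2, 78.5 and 60.7 TPM (-0.60 ± 0.13, adjusted p = 0.00294). FOXM1 was at 41.9, 39.0 and 43.8 TPM, below all 3 controls (-0.55 ± 0.16, adjusted p = 0.0179). TOP2A and CENPA fell by 0.56 and 0.41 on the log2 scale (adjusted p = 0.0223 and 0.0305). TPX2 and BIRC5 stayed called under all 15 alternatives, and the other 3 lost the call under 5 to 8 of them. Leaving out siCTRL replicate 3 ended all 3 (adjusted p = 0.0675 for FOXM1, 0.0801 for TOP2A and 0.148 for CENPA), as did leaving out siVPS37AB replicate 1 (0.0505, 0.0852 and 0.0644) or 2 (0.0667, 0.0789 and 0.112). FOXM1 and TOP2A were also lost without siCTRL replicate 1 (0.0939 and 0.0588), and CENPA without siCTRL replicate 2 or siVPS37AB replicate 3 (0.0859 and 0.0559). With the library number as a term none of the 3 was called: TOP2A was at -0.16 (adjusted p = 0.541), FOXM1 at -0.53 (adjusted p = 0.0822) and CENPA at -0.35 (adjusted p = 0.134). Against NT, TOP2A and CENPA were not called either (adjusted p = 0.118 and 0.0618). The median over the 42 members was -0.24, against 0.07 for all genes. With the replicate block 12 members fell, with 25.6% of all genes called, and quantile normalization or median of ratios scaling gave 10 lower each. Quantile normalization also moved the split of all calls from 723 higher and 233 lower to 531 higher and 455 lower.

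Of the single depletions, siVPS37A and siVPS37B each called members. In siVPS37A cells 2 fell and 0 rose, against 0.635% and 1.19% of all genes. TOP2A was at 61.7, 67.0 and 52.6 TPM, below all controls (-0.68 ± 0.17, adjusted p = 0.0312), and INCENP at 33.4, 34.1 and 29.6 TPM against 44.2, 46.8 and 45.9 TPM in siCTRL (-0.49 ± 0.13, adjusted p = 0.0462). With the library number as a term these were -0.30 (adjusted p = 0.437) and -0.35 (adjusted p = 0.281). INCENP lost its call with any 1 of the 6 libraries left out (adjusted p = 0.0579 to 0.202), and TOP2A with any but siVPS37A replicate 2 (0.0558 to 0.165). INCENP was not called in any group that combined siVPS37A with another siRNA, where its differences from siCTRL were -0.20, -0.09 and -0.13. In siVPS37B cells BIRC5 alone fell, to 78.3, 79.2 and 59.2 TPM (-0.55 ± 0.13, adjusted p = 0.0307), against 0.79% of all genes lower and 0.929% higher. That call was lost without siCTRL replicate 1 or 3 or siVPS37B replicate 1 or 3 (adjusted p = 0.118, 0.127, 0.0692 and 0.0951). With the block, siVPS37A had 3 members lower (6.33% of all genes called) and siVPS37B had 3 lower and 1 higher (9.4%).

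No member was called in siVPS37C, siVPS37AC or siVPS37BC cells against siCTRL by limma, where 4, 3 and 3 members had an unadjusted p under 0.05. The share of all genes under that unadjusted threshold is not given, here or for the comparisons below. Those counts are therefore a description only. Of all genes, 0.387% fell and 0.108% rose in siVPS37C, 1.33% and 3.07% in siVPS37AC, and 0.65% and 0.635% in siVPS37BC cells. The member medians were 0.03, -0.07 and 0.02. The block added 1 call in each: AURKA higher in siVPS37C (0.53, adjusted p = 0.0401, 2.07% of genes called), TPX2 lower in siVPS37AC (-0.39, adjusted p = 0.0221, 11.8%) and CDC25B higher in siVPS37BC cells (0.53, adjusted p = 0.0326, 4.38%). AURKA was at 22.9, 21.7 and 21.2 TPM in siVPS37C against 15.2, 15.3 and 14.2 TPM in siCTRL libraries, without overlap. CDC25B was at 86.2, 88.9 and 90.8 TPM in siVPS37BC libraries, all above the controls.

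**Figure D3:**
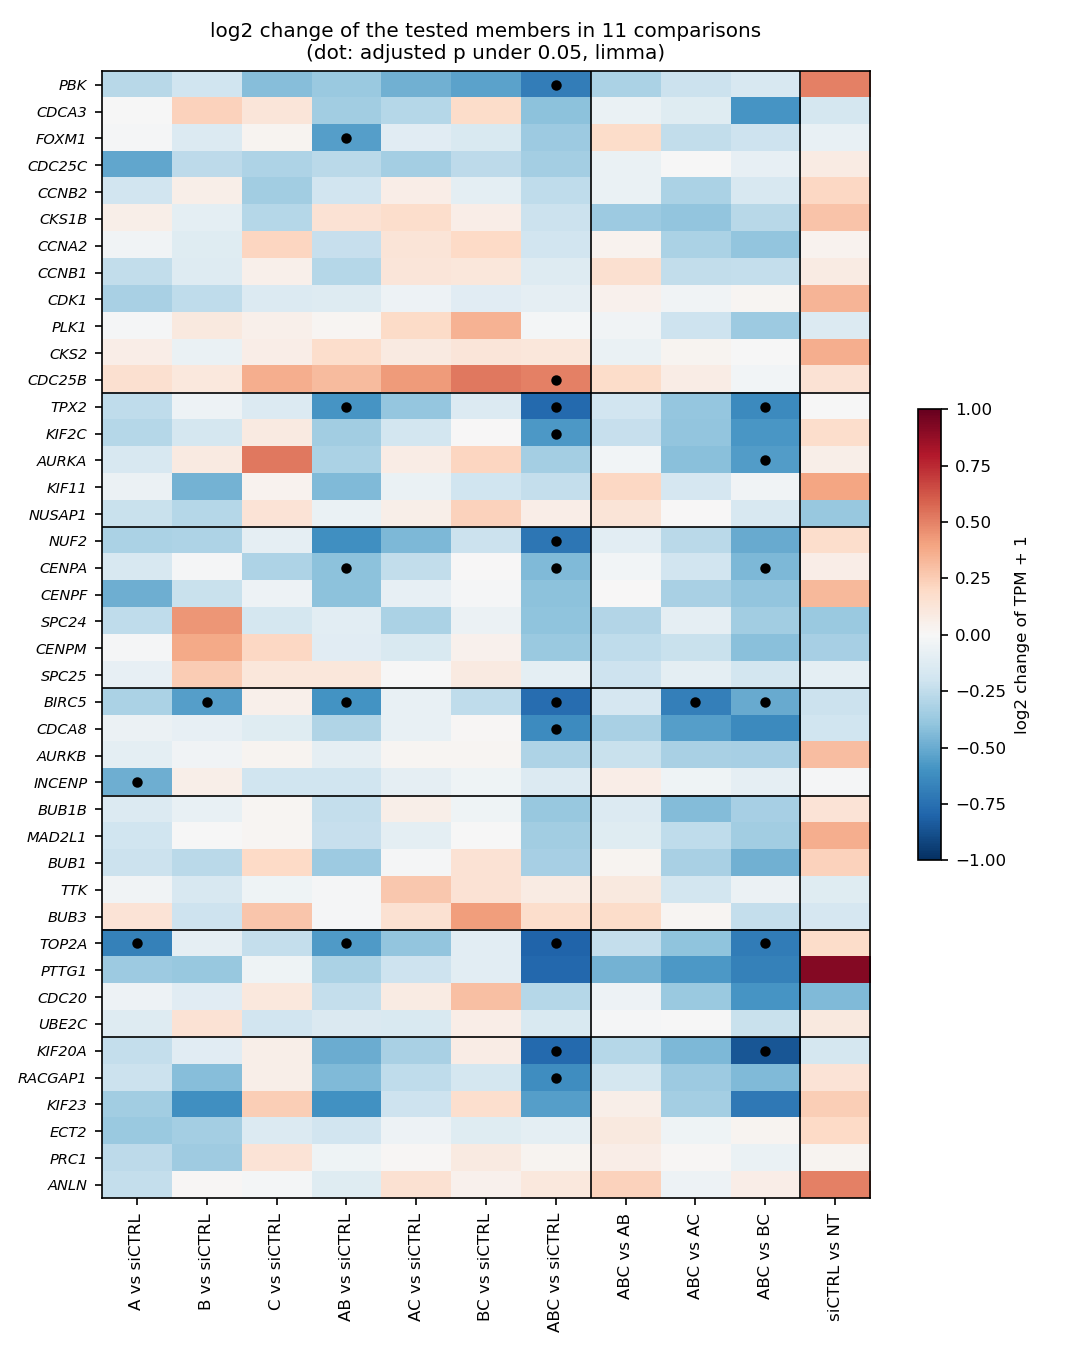
Log2 change of TPM + 1 (colour, blue lower and red higher) of the 42 tested members, in rows by role separated by lines, over 11 comparisons in columns; a dot marks an adjusted p under 0.05 by limma. The dots fall on 10 lower members and 1 higher in ABC against siCTRL, on 5 lower in AB against siCTRL and on 6 lower in ABC against BC.

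The triple depletion was also set against each double. These comparisons share the siVPS37ABC libraries with each other and with the one against siCTRL. Against siVPS37BC cells, where the added siRNA targets VPS37A, 6 members fell and 0 rose, while 4.55% of all genes fell and 7.46% rose. They were TPX2 (-0.64 ± 0.12, adjusted p = 0.000546), KIF20A (-0.86 ± 0.18, adjusted p = 0.00259), TOP2A (-0.70 ± 0.17, adjusted p = 0.00594), BIRC5 (-0.51 ± 0.13, adjusted p = 0.0114), AURKA (-0.56 ± 0.15, adjusted p = 0.0163) and CENPA (-0.45 ± 0.13, adjusted p = 0.0228). TPX2 was at 111, 112 and 100 TPM in siVPS37BC libraries, all above the 67.4 to 70.7 TPM of siVPS37ABC libraries. AURKA lost its call without siVPS37ABC replicate 3 or siVPS37BC replicate 3 (adjusted p = 0.0964 and 0.0612), BIRC5 without siVPS37ABC replicate 1 (0.0529), and CENPA without siVPS37ABC replicate 1 or 3 or siVPS37BC replicate 1 or 2 (0.112, 0.0741, 0.0754 and 0.106). The median member difference was -0.34, and 39 of 42 lay below 0. The block gave 19 lower and 0 higher, with 22.4% of all genes called.

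Against siVPS37AC cells, where the added siRNA targets VPS37B, BIRC5 alone fell (-0.68 ± 0.13, adjusted p = 0.00251), with 1.89% of all genes lower and 2.46% higher. BIRC5 was at 103, 98.9 and 97.8 TPM in siVPS37AC libraries, near its siCTRL level. The median difference was -0.25, and with the block 6 members fell and 0 rose (12.2% of genes called). Against siVPS37AB cells, where the added siRNA targets VPS37C, limma called no member and 1 had an unadjusted p under 0.05. Here 0.681% of all genes fell and 0.356% rose, and the median member difference was -0.06. The block called none either.

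The estimates of TPX2 and BIRC5 against siCTRL were ordered differently over the combinations, and the 2 genes were not tested against each other. TPX2 stood at -0.26 ± 0.12 in siVPS37A, -0.05 ± 0.12 in siVPS37B, -0.59 ± 0.12 in siVPS37AB, -0.39 ± 0.12 in siVPS37AC and -0.14 ± 0.12 in siVPS37BC cells. BIRC5 stood at -0.31 ± 0.13, -0.55 ± 0.13, -0.60 ± 0.13, -0.08 ± 0.13 and -0.25 ± 0.13 in the same order. Whether a combination differed from the sum of its single depletions was tested as a contrast. None of the 42 members was called in any of the 4 such contrasts by limma, nor was any of the 6458 tested genes (0%), with 1, 4, 1 and 2 members at an unadjusted p under 0.05 for siVPS37AB, siVPS37AC, siVPS37BC and siVPS37ABC. The departure of TPX2 in siVPS37ABC cells was -0.33 ± 0.23 and that of BIRC5 was 0.05 ± 0.26. The SE of these contrasts ran from 0.17 to 0.71 on the log2 scale, against 0.12 to 0.36 for a comparison of 2 groups, so small departures were not detectable.

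The transfection control was also set against untreated cells. Between siCTRL and NT limma called no member, 7 had an unadjusted p under 0.05, and 2.17% of all genes fell and 1.01% rose. The median member difference, siCTRL minus NT, was 0.09. The 205 genes called are more than in siVPS37A (118), siVPS37B (111), siVPS37C (32) or siVPS37BC cells (83) against siCTRL. With the block ANLN, a cleavage furrow scaffold, and PTTG1 were higher in siCTRL (0.50, adjusted p = 0.00865, and 0.92, adjusted p = 0.0205), with 8.86% of all genes called. Against NT in place of siCTRL, 10 members were lower and 2 higher in siVPS37ABC cells, with a median of -0.17, while 11% of all genes were lower and 14.3% higher. NUF2, KIF2C, RACGAP1 and PBK were not called in that comparison, and SPC24, CENPM, CDC20 and FOXM1 (lower) and ANLN (higher) were.

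A library number moved with these results. The number that ends each library's description was 88 or 603 in the siCTRL and NT libraries, 80, 84 or 88 in siVPS37ABC and 80, 84 or 89 in siVPS37AB libraries, and what it stands for is not given in the sources used here. With that number as a term the siVPS37ABC comparison called 10 members lower and 2 higher (9.45% and 20.7% of all genes), but the median member difference shrank from -0.34 to -0.13. For siVPS37AB it called 4 lower (4.24% of all genes), and the median went from -0.24 to -0.02. Its part in the medians cannot be fully told apart from the groups. Within number 88, the member median was -0.06 and -0.07 in the 2 siCTRL libraries and -0.18 in the siVPS37ABC library. It was -0.09 and -0.16 in the 2 NT libraries of that number, the second close to the knockdown, and -0.03 in the siVPS37AC library. The siCTRL and NT libraries there are replicates 1 and 2, and the knockdown libraries are replicate 3. Replicates 1 and 2 of siVPS37BC and siVPS37ABC share numbers 80 and 84, and their remaining libraries differ (89 and 88). Between these groups the median difference kept its size with the term (-0.33, with 12 members lower and 0 higher, and 6.55% of all genes lower). The siVPS37AC and siVPS37ABC libraries share all their numbers (80, 84 and 88). Between them BIRC5 alone was called lower, with 1.89% of all genes lower. With the term BUB1B, TPX2, TOP2A, CCNA2 and CDCA8 were called lower as well.

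The per-library medians show the replicate pattern as well. Relative to the siCTRL mean, the member median was -0.34, -0.35 and -0.18 in the siVPS37ABC libraries and -0.30, -0.27 and -0.12 in the siVPS37AB libraries. In the siCTRL libraries it was -0.06, -0.07 and 0.12. Replicate 3 was the highest of its group in all 9 groups. The third siVPS37ABC and siVPS37AB libraries were thus below every siCTRL library, and the median of all tested genes in them was 0.10 and 0.15. Neither was below all libraries of the other groups. The second NT library was below the third siVPS37AB library, and the first siVPS37C library was below the third siVPS37ABC library. Without siCTRL replicate 3 the siVPS37ABC comparison called 4 members lower and 1 higher, and without siVPS37ABC replicate 1 it called 5 lower and 1 higher.

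**Figure D4:**
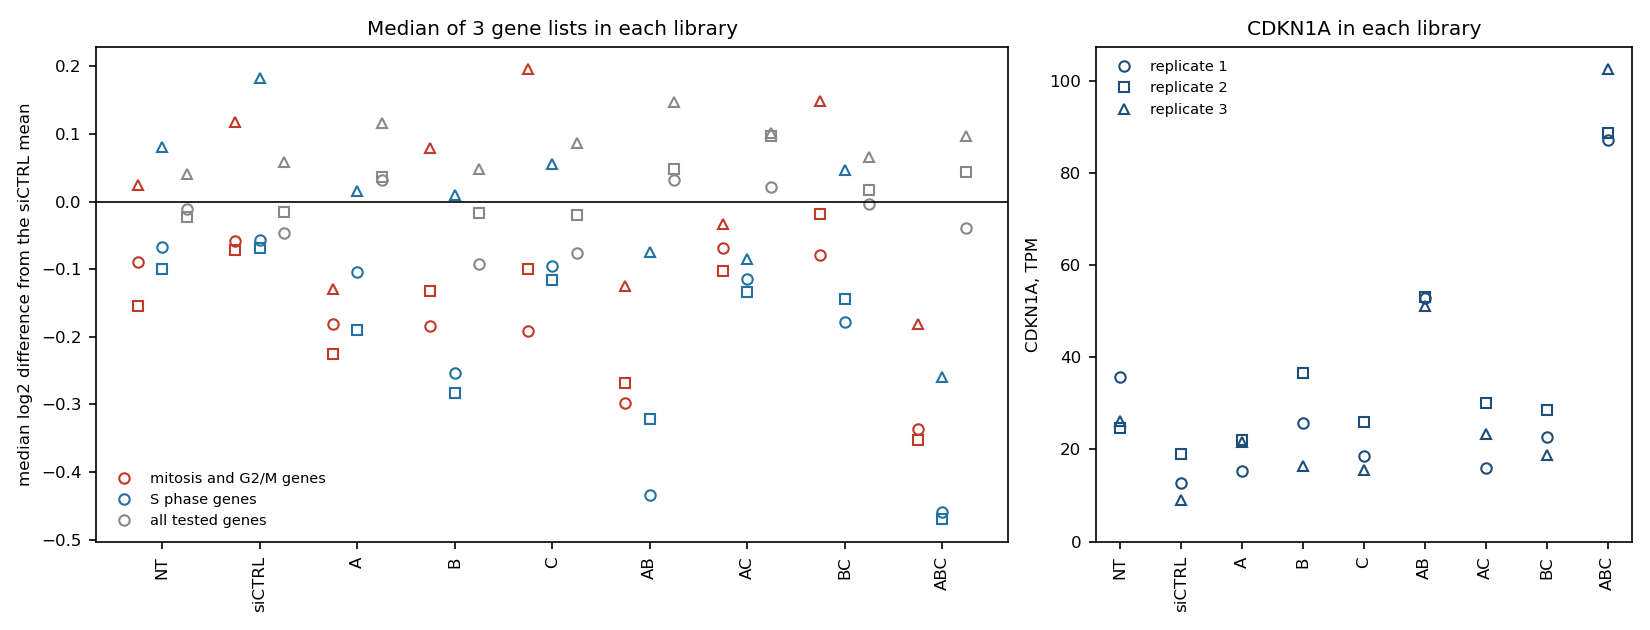
Left, the median log2 difference from the siCTRL mean (vertical axis) over the 42 tested members, the tested S phase genes and all tested genes in each library; right, CDKN1A in TPM; symbols are the 3 replicates. The member medians of the ABC libraries lie at -0.35 to -0.18 and those of the AB libraries at -0.30 to -0.12, and CDKN1A is at 51.1 to 103 TPM in these 2 groups. The third AB library lies above all A libraries in the member median and above all AC libraries in the S phase median.

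Other genes of mitosis outside the 46 were counted in the same way. Their list and those that follow were also chosen with earlier results of these data known, so the counts are a description. Of 56 that were tested, 17 fell and 0 rose in siVPS37ABC cells (8.32% of all genes fell), with a median of -0.33. SKA2, an outer kinetochore subunit, was at 51.7, 46.7 and 64.2 TPM in siCTRL and at 14.4, 16.3 and 24.7 TPM in siVPS37ABC libraries (-1.53 ± 0.18, adjusted p = 8.89e-07). Its fall was not particular to that group. It was called in siVPS37AC (-0.87, adjusted p = 0.00606) and siVPS37BC cells (-0.82, adjusted p = 0.0182). In siVPS37C, siVPS37A and siVPS37B cells it was at -0.74, -0.65 and -0.49, not called. PIMREG, another of these genes, was also called lower in siVPS37AC cells (-0.60, adjusted p = 0.0279). LMNB1, the nuclear lamina protein lamin B1, fell to 49.6% of its siCTRL mean (-1.004 ± 0.12, adjusted p = 1.05e-06), and FAM83D, a spindle-associated protein, to 54.0% (-0.87 ± 0.15, adjusted p = 9.98e-05). In siVPS37AB cells 15 of the 56 fell (3.61% of all genes), in siVPS37A cells 3 (0.635%), and in siVPS37ABC against siVPS37BC cells 15 (4.55%), with none higher in these comparisons.

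Of 37 tested S phase genes 12 fell and 0 rose in siVPS37ABC cells (median -0.42, with 8.32% of all genes lower), and 6 fell in siVPS37AB cells (median -0.28, with 3.61% lower). RRM2, a subunit of ribonucleotide reductase, was at 284, 244 and 373 TPM in siCTRL and at 75.5, 82.2 and 123 TPM in siVPS37ABC libraries (-1.68 ± 0.19, adjusted p = 3.45e-07). RRM2 was at 31.2% to 41.4% of its siCTRL mean in all 4 groups that received siVPS37C, the single depletion included, and at 70.5% to 88.9% in the other knockdowns. TYMS, the thymidylate synthase gene, which a neighbouring gene overlaps on the other strand, fell to 61.9% (-0.68 ± 0.12, adjusted p = 0.000125), and GINS2, a subunit of the replicative helicase, to 60.6% (-0.70 ± 0.12, adjusted p = 0.000148).

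Of 4 tested inhibitors of cyclin-dependent kinases, 1 rose and 1 fell in siVPS37ABC cells, where 13.6% of all genes rose and 8.32% fell. CDKN1A, the p21 inhibitor of cyclin-dependent kinases, was at 12.8, 19.1 and 8.93 TPM in siCTRL, 53.0, 53.0 and 51.1 TPM in siVPS37AB, and 87.2, 88.8 and 103 TPM in siVPS37ABC libraries. It rose by 1.93 ± 0.26 (adjusted p = 1.45e-05) and 2.74 ± 0.26 (adjusted p = 2.5e-08), and it was at 35.8, 24.7 and 26.1 TPM in NT cells, and siCTRL minus NT was called (-1.07 ± 0.26, adjusted p = 0.0199). CDKN2C, an inhibitor of CDK4 and CDK6, fell in siVPS37ABC cells (-1.16 ± 0.16, adjusted p = 5.26e-06), in siVPS37AB (-0.46 ± 0.16, adjusted p = 0.0495) and in siVPS37AC cells (-0.62 ± 0.16, adjusted p = 0.0222). CDKN2D, another of that family, rose in siVPS37AB (0.79 ± 0.17, adjusted p = 0.0018) and in siVPS37B cells (0.91 ± 0.17, adjusted p = 0.00341).

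Of 6 tested G2 checkpoint genes 3 rose in siVPS37ABC cells, where 13.6% of all genes rose. SFN (14-3-3 sigma), which keeps CDK1 in the cytoplasm, was at 159, 127 and 131 TPM in siCTRL and at 459, 357 and 424 TPM in siVPS37ABC libraries (1.56 ± 0.24, adjusted p = 3.83e-05). GADD45A, a stress protein of the G2 arrest, rose by 0.90 ± 0.21 (adjusted p = 0.00225), and WEE1, the kinase that inhibits CDK1, by 0.50 ± 0.14 (adjusted p = 0.0116). SFN and GADD45A also rose in siVPS37AB cells (1.47 ± 0.24 and 0.93 ± 0.21, adjusted p = 0.00016 and 0.00282). Of the DREAM, E2F and NF-Y regulators 1 of 16 fell, the MuvB subunit LIN9 (-0.47 ± 0.14, adjusted p = 0.016), and 0 rose, a share near the 8.32% of all genes that fell. LIN9 was at 28.1, 28.9 and 30.0 TPM in siCTRL, at 19.6, 18.2 and 24.6 TPM in siVPS37ABC and at 20.9, 22.1 and 18.2 TPM in NT libraries, so that the knockdown overlapped the untreated cells. Of 14 subunits of the anaphase-promoting complex ANAPC5 fell (-0.65 ± 0.16, adjusted p = 0.0036) and 0 rose, again a share near that of all genes. What part CDKN1A or any other regulator has in the levels of the mitosis genes was not tested.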

How the data were processed

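Total RNA from 27 DLD1 cultures (9 groups of 3) was read with an amplicon transcriptome panel, per the labels' protocols. The submitters' processing notes name hg19, HTSeq 0.6.0 and DESeq2 1.18.1 without a role. The deposited table is named by its authors for normalized counts, but its values are fractional and each column sums to 1000000 over 10470 genes, so they were treated as TPM. That unit is inferred from the values, and 2157 lines without an identifier were left out. The depth is unknown. From it, log2(TPM + 1) was fitted with limma 3.58.1 (R 4.3.3, intensity trend, 9 group means, 18 residual degrees of freedom) over the 6458 genes whose mean reached 10 TPM, with Benjamini-Hochberg adjustment within each of 15 comparisons and a threshold of 0.05. The script was tested on simulated data. Groups came from the labels, which give a batch equal to the replicate number. Deviations from the group means correlated at a mean of 0.355 over 108 pairs of libraries with the same number and -0.175 over 216 pairs with different numbers.

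The members and all other lists were chosen with earlier results of these data known. Named genes were a fixed set of cell cycle regulators, the called members, the extremes of each role in siVPS37ABC, and up to 3 called genes of each other list by smallest p. Alternatives were the replicate block, the library number as a term, no filter or one at 50 TPM, 8 in place of 1 as the added constant, quantile normalization, median of ratios scaling, a fit on the groups compared alone, NT as the reference, and each library left out. Promoter windows were taken from RefSeq (GRCh38.p14), and the 6 printed ones were picked after the values were seen.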

Additional observations from a re-analysis of the deposited data

How the results depend on the processing

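The 26 calls of single members were followed through 373 alternatives: 280 kept the call, 93 lost it and 0 changed direction. TPX2, BIRC5, TOP2A and KIF20A in siVPS37ABC against siCTRL kept it in every one that was run. TOP2A ranged from -0.93 to -0.51 there and TPX2 from -0.82 to -0.72. The other calls were lost under 3 to 10 alternatives each in that comparison, most often with a library left out. The cause was not tested.

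Counts of called members, both directions together, moved by more than 1.5 times as follows. The replicate block gave 4 in siVPS37B, 1 in siVPS37C, 12 in siVPS37AB, 1 in siVPS37AC, 1 in siVPS37BC and 19 in siVPS37ABC against siCTRL (main counts 1, 0, 5, 0, 0 and 11), 2 in siCTRL against NT (main 0), and 6 and 19 in siVPS37ABC against siVPS37AC and siVPS37BC (main 1 and 6). It changed no other count by that much. The library number as a term gave 0 in siVPS37A (main 2) and siVPS37B, 1 in siVPS37AC and siVPS37BC, 2 in siCTRL against NT, and 6 and 12 in siVPS37ABC against siVPS37AC and siVPS37BC.

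No filter and 8 as the added constant each gave 1 in siVPS37A. A mean of at least 50 TPM, under which fewer members are tested, gave 1 in siVPS37A, 1 in siVPS37AC, 5 in siVPS37ABC against siCTRL, and 2 and 3 in siVPS37ABC against siVPS37AC and siVPS37BC. Quantile normalization gave 10 in siVPS37AB, 1 in siVPS37AC, and 10 in siVPS37ABC against siVPS37BC. Median of ratios scaling gave 0 in siVPS37B, 10 in siVPS37AB, 1 in siVPS37AC and 1 in siCTRL against NT. A fit on the groups compared alone gave 0 in siVPS37A, 0 in siVPS37B and 6 in siVPS37ABC. NT as the reference gave 4 in siVPS37A, 2 in siVPS37B, 2 in siVPS37C, 4 in siVPS37AC and 3 in siVPS37BC. In siVPS37AC these were SPC24 and TPX2 lower and ANLN and CDC25B higher. In siVPS37BC they were BIRC5 lower and CDC25B and ANLN higher. The share of all genes called is not given beside the counts of this section, which describe the settings only.

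With each library left out in turn the counts ranged from 0 to 1 in siVPS37A, siVPS37B, siVPS37AC and siVPS37BC, from 2 to 5 in siVPS37AB and from 5 to 11 in siVPS37ABC against siCTRL. In siVPS37AB the count was 2 without its replicate 1 or 2, 3 without siCTRL replicate 1 or 3, and 5 without siCTRL replicate 2. In siVPS37ABC it was 5 without siCTRL replicate 3 and 6 without its own replicate 1 or 2. The table gives no read counts, so the depth behind the lower members is unknown.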
